A study of Mus musculus with 6 samples.

Results

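The oligoadenylate synthetase (OAS) family was followed in neutrophils from the dura mater of mice, the outermost membrane around the brain. The 6 members were taken by symbol, Oas1a, Oas1g, Oas2, Oas3, Oasl1 and Oasl2, and all 6 were found among the 21955 Ensembl gene identifiers of the count files. There were 6 libraries of poly-A RNA, 3 labelled male and 3 labelled female. All came from wild-type animals after exposure to a social threat, and no library of unexposed animals was analysed here. The study set out to compare the state of these cells between the sexes after the exposure. The labels give neither the age of the animals nor whether each library came from a separate animal, so a p-value here reflects how much the libraries vary, and that variation may be technical.

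OAS proteins are nucleic acid sensors. When they bind double-stranded RNA, the active members join ATP into short adenylate chains that act as a second messenger of the antiviral response. Their genes are classic targets of interferon, switched on by a complex that includes STAT2 and IRF9 at interferon-stimulated response elements, and in neutrophils they belong to the antiviral programme that interferon induces.

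The promoters of the members are shown first because the core of that response element, 2 copies of GAAA with any 2 bases between them, can be read in them. Of the 6 members 5 had an entry in the RefSeq promoter table (build GRCm38.p6; Oas2 had none), which covers 250 bases before and 50 bases after each annotated start. The submitters' processing notes name GRCm39 for the files, so these coordinates apply to the table only. The last 120 bases before the start are printed 5′ to 3′ on the strand of the gene, for the 5 members and for the paralog Oas1c. Capitals mark matches on either strand to that core or to TTCNNNGAA, the gamma-activated site of interferon-responsive genes (N is any base).
Oas1a, chr5:120907526-120907645, minus strand: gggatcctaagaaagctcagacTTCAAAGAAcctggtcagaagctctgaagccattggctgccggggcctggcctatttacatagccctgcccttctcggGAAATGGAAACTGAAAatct
Oas1g, chr5:120887614-120887733, minus strand: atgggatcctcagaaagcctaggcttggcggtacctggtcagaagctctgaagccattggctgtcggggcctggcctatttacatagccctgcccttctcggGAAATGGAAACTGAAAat
Oas3, chr5:120777660-120777779, minus strand: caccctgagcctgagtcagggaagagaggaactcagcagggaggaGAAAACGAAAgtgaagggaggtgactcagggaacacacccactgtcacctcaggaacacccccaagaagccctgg
Oasl1, chr5:114923120-114923239, plus strand: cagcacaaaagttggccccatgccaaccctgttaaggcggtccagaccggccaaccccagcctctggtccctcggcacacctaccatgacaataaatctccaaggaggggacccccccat
Oasl2, chr5:114896814-114896933, plus strand: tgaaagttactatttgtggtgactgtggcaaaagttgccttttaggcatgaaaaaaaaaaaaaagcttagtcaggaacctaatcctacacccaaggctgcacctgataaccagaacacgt
Oas1c, chr5:120812515-120812634, minus strand: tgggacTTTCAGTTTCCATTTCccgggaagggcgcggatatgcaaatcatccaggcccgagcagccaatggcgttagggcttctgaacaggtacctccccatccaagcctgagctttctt

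Oas1a and Oas1g each carried 2 overlapping matches to the response element core, which together form the 16 bases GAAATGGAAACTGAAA. In Oas1a these lay from 20 to 5 bases before the start, and TTCAAAGAA, the 1 match to the gamma-activated site, lay further upstream. Oas3 carried 1 match to the core, GAAAACGAAA. Over the printed 120 bases Oas1a and Oas1g were identical at 108 of 122 aligned positions (88.5%), while the other pairs of printed promoters were between 42.5% and 51.8% identical. Oas1c holds the 16 bases too, as their reverse complement, further from its start. Oasl1 and Oasl2 had no match to either motif in this window. Of all 32851 promoters in the table, 3.44% held the core and 8.30% held the gamma-activated site, and the 16 bases occurred in 7 promoter entries, those of Oas1a, Oas1c, Oas1g, Apol9a and Apol9b. A match describes the letters in the window and is not evidence of binding.

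Total counts ranged from 17098026 to 20778410 per library. The Y-linked genes Ddx3y, Eif2s3y, Kdm5d and Uty, read as a check on the labels, summed to between 306.5 and 317.7 CPM (counts scaled to the size of each library) in the male-labelled libraries and to between 311.9 and 327.8 CPM in the female-labelled ones. These genes are carried by males alone, so their levels go against the label of all 3 female-labelled libraries, and the directions below describe the 2 label groups and not the sexes. The 7 neutrophil markers measured were abundant and summed to between 26430 and 40990 CPM in each library, led by the S100 genes S100a8 and S100a9. Female replicate 3 stood somewhat apart from the other libraries of its label (chi-square per degree of freedom 14.2 and 17.5, against 5.35 between those), and all 6 members were also called without it.

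All 6 members were lower in the female-labelled libraries. The fall was steepest for the OAS-like genes, Oasl1 at 3.42-fold and Oasl2 at 2.18-fold, and between 1.41-fold and 1.56-fold for Oas1a, Oas1g, Oas2 and Oas3. All 6 passed edgeR's quasi-likelihood test at an adjusted p under 0.05, and the 2 label groups did not overlap for any of them. Of the 11903 genes tested, 6.62% were called lower and 15.0% were lower with groups that did not overlap. The median log2 change of the members was -0.62, against 0.00 for all genes tested. Every member had at least 127 counts in each library, so none passed the filter on low counts through 1 group alone. In bulk samples such as these, fewer cells that express a gene and less RNA per cell cannot be told apart.

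Oasl1 (ENSMUSG00000041827, chromosome 5) encodes an OAS-like protein that lacks synthetase activity and is known to restrain translation of the mRNA of Irf7. Its level was 24.5, 20.2 and 24.1 CPM in the male-labelled libraries and 6.72, 6.70 and 6.64 CPM in the female-labelled ones. Every male-labelled library was therefore far above every female-labelled library. The latter were nearly equal, on 127, 133 and 134 counts, where counting noise alone usually gives more spread. Oasl1 had the highest fold of the family, with a log2 change of -1.78 (SE 0.12, adjusted p = 3.69e-09) and rank 12 of all genes by p.

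Oasl2 (ENSMUSG00000029561, chromosome 5) has kept its synthetase activity in the mouse and, like Oasl1, carries ubiquitin-like repeats. It was measured at 111.0, 105.1 and 106.4 CPM in the male-labelled libraries against 50.8, 48.4 and 49.1 CPM in the female-labelled ones. The groups were far apart and each was tight. The log2 change was -1.12 (SE 0.06, adjusted p = 2.31e-10), rank 4 of all genes by p.

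Oas3 (ENSMUSG00000032661), a large protein of repeated synthetase units that senses long double-stranded RNA, had the highest CPM of the family. It stood at 121.0, 119.2 and 121.6 CPM in the male-labelled libraries and at 81.4, 83.9 and 91.4 CPM in the female-labelled ones. Its change was the smallest of the 6, at -0.49 on the log2 scale (SE 0.06, adjusted p = 1.21e-05). The nearest libraries of the 2 groups were still well separated.

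Oas2 (ENSMUSG00000032690), also built of repeated units, was at 90.8, 87.8 and 97.5 CPM against 60.1, 57.1 and 64.6 CPM. The lowest male-labelled library was above the highest labelled female. The log2 change was -0.60 (SE 0.07, adjusted p = 2.69e-06).

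Oas1a (ENSMUSG00000052776) is an active single-unit synthetase. Its values were 65.8, 68.2 and 68.1 CPM in the male-labelled libraries and 43.3, 38.0 and 48.1 CPM in the female-labelled ones. The female-labelled libraries were more spread out (SD 5.05 against 1.37 CPM) but all lay below the others. The log2 change was -0.64 (SE 0.08, adjusted p = 7.90e-06).

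Oas1g (ENSMUSG00000066861), a close copy of Oas1a, was at 12.3, 12.1 and 11.3 CPM against 8.14, 6.90 and 9.47 CPM. Its groups were closest together, and the log2 change was -0.54 (SE 0.14, adjusted p = 0.0137). This call was lost without male replicate 1 (adjusted p = 0.0523), male replicate 2 (0.0503) or female replicate 2 (0.0882), and was firmer without female replicate 3 (log2 -0.66, adjusted p = 0.00157). Of the distinct 50-base stretches in annotated transcripts, 57.6% of those of Oas1a also occur in Oas1g and 45.2% of those of Oas1g in Oas1a, so how the counting split shared reads can move their separate values. Their sum does not depend on that split between them, although shared reads left uncounted would be missing from it. It was 79.2 ± 1.16 CPM in the male-labelled libraries and 51.3 ± 6.33 CPM in the female-labelled ones (SD, n = 3), a ratio of 1.55. At most 0.31% of the stretches of Oas2, Oas3, Oasl1 or Oasl2 occur in another gene.

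**Figure D1:**
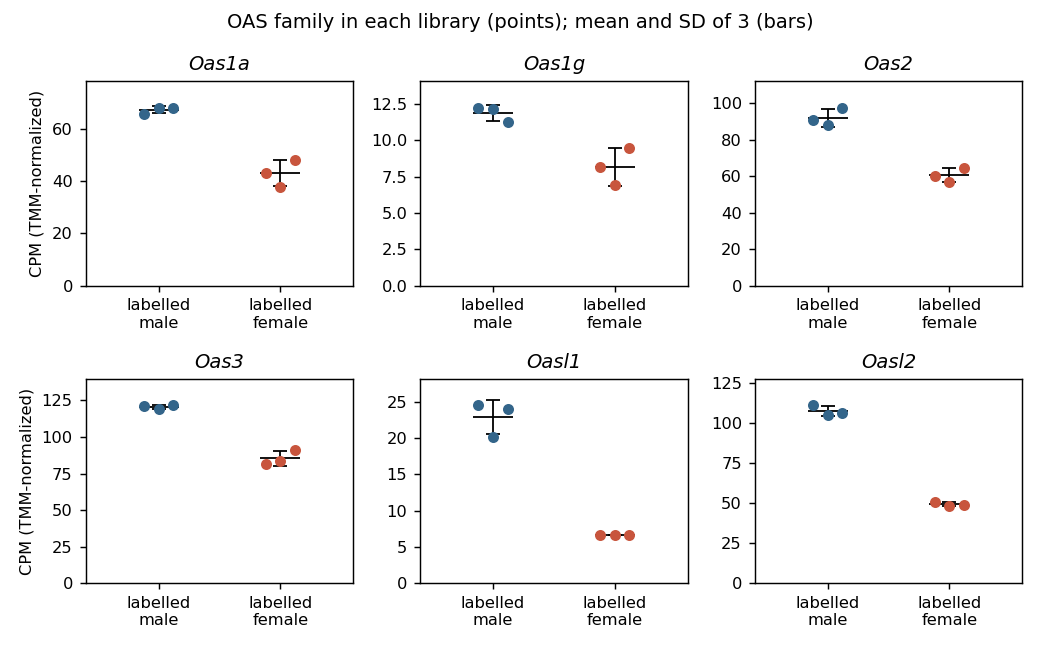
CPM of the 6 OAS family members (vertical axes, each from 0) in the 3 male-labelled libraries and the 3 labelled female; points are libraries, bars the mean and SD. The members are lower in all 3 female-labelled libraries, Oasl1 at 6.64 to 6.72 against 20.2 to 24.5 CPM.

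Added together, the members amounted to 425.4, 412.6 and 428.9 CPM in the male-labelled libraries and to 250.4, 240.9 and 269.3 CPM in the female-labelled ones. The means differed by a factor of 1.67 (p = 0.1 by an exact two-sided permutation test, which 3 against 3 cannot go below). The make-up of the sum was not the same in both groups. Oasl1 made up 5.42% of the sum in the male-labelled libraries and 2.64% in the female-labelled ones, and Oasl2 25.5% and 19.5%. The share of Oas3 was 28.6% and 33.8%, and that of Oas2 21.8% and 23.9%. For each of these 4 genes the shares of the groups did not overlap (p = 0.1 for each by the exact test, its lower limit), whereas the shares of Oas1a and Oas1g did overlap.

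The same values were also read with the log2 level of each member set against the mean of the other members in the same library. This balance, in which a shift common to all members cancels, was lower in the female-labelled libraries by -1.07 for Oasl1 and -0.31 for Oasl2. It was higher by 0.44 for Oas3, 0.38 for Oas1g, 0.31 for Oas2 and 0.25 for Oas1a. Groups did not overlap in any of the 6 comparisons (p = 0.1 for each by the exact test and 0.1 after Benjamini-Hochberg adjustment over the 6), so the design cannot take these differences past a threshold of 0.05. The balances of the members are bound to each other, since a steep fall of 1 raises the rest.

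To compare levels between genes, CPM was divided by the length of all exons of the gene in GENCODE vM21, in kilobases. That length pools all annotated transcripts, and which of them were expressed was not read. The order between genes can move with it. In the male-labelled libraries the order of the levels was Oas1a (35.7 CPM per kb), Oas2 (20.7), Oas3 (17.1), Oasl2 (16.9), Oasl1 (8.79) and Oas1g (5.08). Oas3 and Oasl2 did not differ beyond their spread there, at 16.9 to 17.2 and 16.5 to 17.4 CPM per kb. In the female-labelled libraries the order was Oas1a (22.9 CPM per kb), Oas2 (13.6), Oas3 (12.1), Oasl2 (7.75), Oas1g (3.49) and Oasl1 (2.56). There Oasl2, at 7.59 to 7.97 CPM per kb, no longer overlapped Oas3, at 11.5 to 12.9. The ranges of Oas2 (12.8 to 14.5 CPM per kb) and Oas3 overlapped slightly, although Oas2 was the higher of the pair in every library. The lowest places differed as well: Oasl1 was above Oas1g in each male-labelled library and below it in each labelled female. The places of Oas1g and Oas1a in these orders can move with how the reads they share were counted, which is not known.

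**Figure D2:**
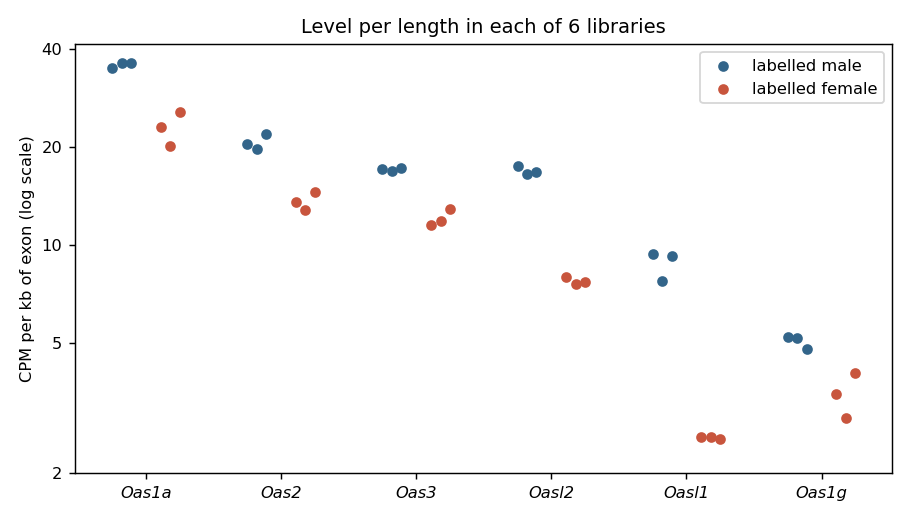
Level in CPM per kilobase of exon (vertical log axis) of the 6 members in each of the 6 libraries (points). Oas1a is highest in every library. Oas3 and Oasl2 overlap in the male-labelled libraries and are apart in the others. Oasl1 and Oas1g trade places between the groups, although the levels of Oas1a and Oas1g can move with how their shared reads were counted.

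Within a label group the members varied in different ways. Among the female-labelled libraries, replicate 3 was above and replicate 2 below the group mean for Oas1a (0.16 and -0.18 on the log2 scale), Oas1g (0.22 and -0.23), Oas2 (0.10 and -0.08) and, less so, Oas3 (0.10 and -0.03). Oasl1 and Oasl2 did not share this: none of their female-labelled libraries deviated by more than 0.04. Oasl1 had 127, 133 and 134 counts there, where counting noise alone usually gives more spread. Whether the members vary differently beyond such noise was not tested. Among the male-labelled libraries the largest deviation was that of Oasl1 in replicate 2, at -0.18. The fall of Oas1a, Oas2, Oas3, Oasl1 and Oasl2 was called without each library in turn, with adjusted p of at most 0.000452.

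The genes whose log2 levels over the 6 libraries were most like the mean of the standardized members were Xaf1 (Pearson's r = 0.999), an interferon-induced regulator of apoptosis, Irf7 (0.999), the transcription factor that amplifies interferon production, and Ifi44 (0.998), followed by Jun (0.998), an AP-1 subunit, and Ikbkb (0.997), a kinase of the NF-kB pathway. They were chosen from 10545 genes, and with libraries in 2 separate groups such a value mainly records the difference between the groups. With group means removed, the most alike were Actg1, Actr3, Palm, Clk4 and Crispld2 (r from 0.997 to 0.999 over 6 libraries), none of which stands in the interferon lists.

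The remaining Oas1 paralogs were little or not detected. Oas1b, known from resistance to flaviviruses, was at 4.97, 4.73 and 4.52 CPM in the male-labelled libraries and 3.12, 3.63 and 4.02 CPM in the female-labelled ones. The groups did not overlap, but the change of -0.40 on the log2 scale (SE 0.20) did not pass the test (adjusted p = 0.209). Oas1c was at 3.39, 3.88 and 4.23 CPM against 3.91, 2.62 and 3.27 CPM, and its groups overlapped (log2 -0.23, SE 0.23, adjusted p = 0.558). The 16 bases it shares with the promoters of Oas1a and Oas1g therefore stood in a gene without a detectable difference at this depth. Oas1h had 8 counts, all in male replicate 3, Oas1d and Oas1f had 1 count each, and Oas1e had none. A count of 0 allows up to 3 counts per library, or 0.149 to 0.179 CPM. Neither Oas1b nor Oas1c, the 2 that could be tested, was called by edgeR, DESeq2 or limma-voom, and neither had an unadjusted p under 0.05 by edgeR.

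Of the other genes read beside the synthetases, Abce1, which recycles ribosomes, was at 90.1, 92.2 and 79.8 CPM against 109.5, 114.4 and 88.5 CPM. Its groups overlapped, and the rise of 0.25 on the log2 scale (SE 0.08) was close to the threshold (adjusted p = 0.0467), where 7.29% of all genes tested were called higher. It was not called without male replicate 1, 2 or 3 (adjusted p = 0.101, 0.0719 and 0.248), without female replicate 1 or 2 (0.14 and 0.230) or by limma-voom (0.0602), while without female replicate 3 the adjusted p was 3.27e-05. The enzymes that degrade the adenylate chains did not pass the test: Pde12 had a log2 change of -0.13 (SE 0.08, adjusted p = 0.305) and Akap7 one of 0.17 (SE 0.15, adjusted p = 0.483).

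**Figure D3:**
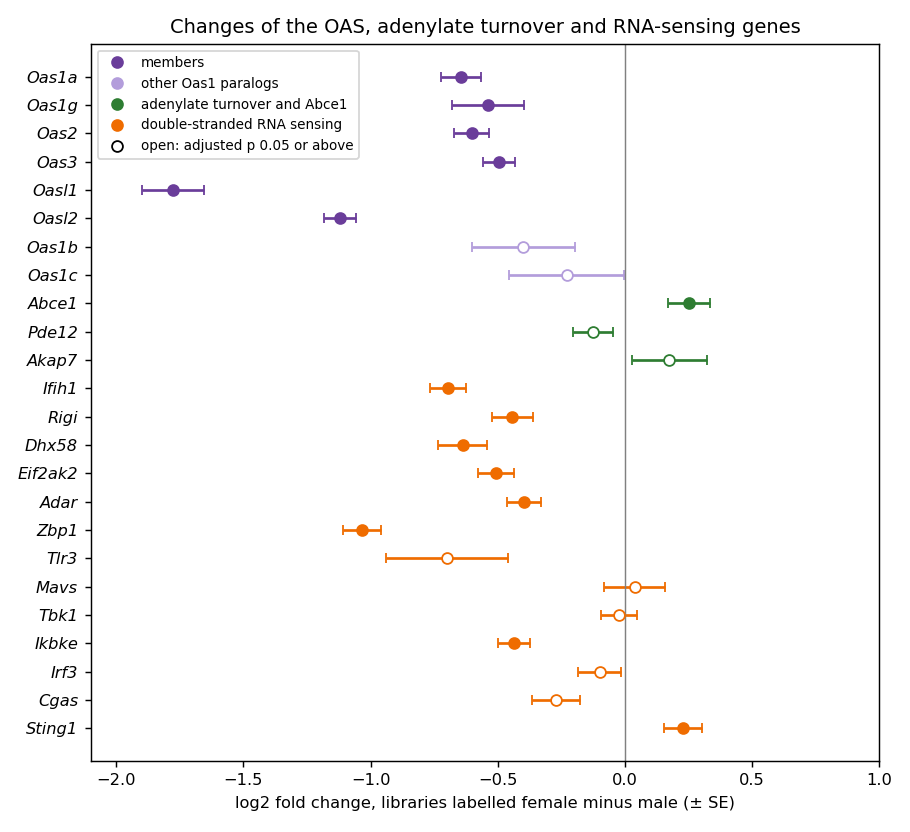
Log2 fold change, female-labelled libraries minus male, with its SE (horizontal axis) for the members, 2 other Oas1 paralogs, Abce1, 2 adenylate turnover genes and 13 genes of nucleic acid sensing; open points did not pass at an adjusted p of 0.05. The 6 members lie between -1.78 and -0.49.

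Genes of a double-stranded RNA sensing list, which also holds adaptors, kinases, a transcription factor and DNA sensing genes, were mostly lower in the same libraries. Of its 13 genes 7 fell and 1 rose, with a median log2 change of -0.44. Over all genes tested 6.62% were called lower and 7.29% higher. Zbp1, a sensor of Z-form nucleic acid, fell from 72.1 ± 5.55 to 35.2 ± 1.36 CPM, 2.05-fold (SD, n = 3), which is near Oasl2. Ifih1, which encodes the long RNA sensor MDA5, fell from 66.5 ± 2.99 to 41.1 ± 1.69 CPM, and Dhx58, the related helicase LGP2, from 36.8 ± 3.32 to 23.6 ± 2.46 CPM. Eif2ak2, the kinase PKR that blocks translation on binding double-stranded RNA, fell by 0.51 and Rigi, the sensor of RNA ends, by 0.44 on the log2 scale. Tlr3, a further sensor of the list, did not pass the test (log2 -0.70, adjusted p = 0.0571).

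Genes downstream of the sensors were less uniform. The kinase gene Ikbke fell by 0.44, while Tbk1 (-0.02), the adaptor Mavs (0.04) and the factor Irf3 (-0.10) did not pass. Sting1, the adaptor of cytosolic DNA sensing and the 1 gene of this list called higher (log2 0.23, adjusted p = 0.0443; singled out after its values were seen), was not called by DESeq2 or without male replicate 2 or 3 or female replicate 2. Cgas, a DNA sensor whose fold resembles that of OAS, had a log2 change of -0.27 (adjusted p = 0.0591).

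Of 7 interferon genes listed, Ifnb1, Ifna4, Ifnl2, Ifnl3 and Ifne had no count in any library (with the limit of 3 counts given above), Ifnk had 5 counts in all, and Ifng did not pass (4.57 ± 2.15 against 2.93 ± 0.822 CPM, adjusted p = 0.156). Ifng was the 1 gene of the 7 with enough counts to be tested, and it was lower at an unadjusted p under 0.05 by edgeR. The receptor genes Ifnar1 (log2 -0.08), Ifnar2 (-0.06) and Ifngr1 (0.11) did not pass either.

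Of 16 genes of interferon signalling 7 fell and 2 rose, where 6.62% of all genes tested were called lower and 7.29% higher. These 2 counts became 4 and 1 without male replicate 1. Irf7 fell from 138 ± 7.04 to 61.7 ± 6.47 CPM, 2.23-fold, and Stat2, a subunit of the complex that binds the response element, from 114 ± 5.20 to 63.4 ± 4.05 CPM, 1.80-fold. Irf9 and Irf8, the latter the most abundant of the list, fell by 0.31 and 0.30 on the log2 scale. The inhibitors Usp18 (log2 -1.07) and Socs1 (-0.84) fell and Socs3 rose (0.57). Jak1 was the other gene that rose (0.27). Without male replicate 1 the calls of Irf9 (adjusted p = 0.0510), Socs1 (0.0751) and Jak1 (0.0723) were lost.

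The members were also set beside 23 other interferon-stimulated genes. Of these 21 fell, where 6.62% of all genes tested were called lower. The median log2 change was -0.71 over the list against -0.62 over the members. The steepest were Ifit3 (-1.85), Ifit3b (-1.69), Ifi44 (-1.63), Isg15 (-1.60) and Ifit1 (-1.59). Oasl1 fell among these, while Oas1a, Oas1g, Oas2 and Oas3 lay nearer to Bst2 (-0.65) and Parp14 (-0.66). Ifitm3, which blocks virus entry and was the most abundant of the list, was at 556.5, 532.8 and 570.5 CPM against 452.9, 453.5 and 537.8 CPM, with groups that overlapped. Its change of -0.20 on the log2 scale (SE 0.07, adjusted p = 0.0475) was called, but leaving out any library other than female replicate 3 ended the call, with adjusted p from 0.0793 to 0.210. Samd9l (0.18) and Ddx60 (0.12) did not pass, and 0 of the list were called higher by edgeR, DESeq2 or limma-voom (1 at an unadjusted p under 0.05 by edgeR).

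**Figure D4:**
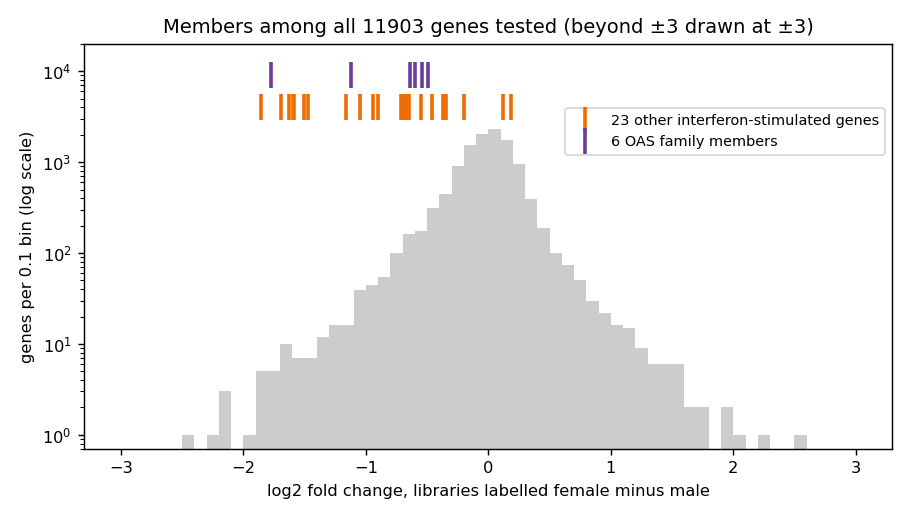
Histogram of the log2 fold change, female-labelled libraries minus male, of all 11903 genes tested (log count axis), with ticks above it for the 6 members and 23 other interferon-stimulated genes. The members lie between -1.78 and -0.49, left of the bulk of the genes, whose median is 0.00.

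Among the 5 members with a promoter entry, the 2 steepest falls were in those without a motif match. The search was for exact matches in a window of 300 bases, so a variant or an element elsewhere would be missed. The members with the response element core in the promoter window, Oas1a, Oas1g and Oas3, had a median log2 change of -0.54, and those without it, Oasl1 and Oasl2, one of -1.45. The order was the opposite among the interferon-stimulated genes, with a median of -1.16 with the core and -0.69 without it. It was also the opposite among genes called lower (-0.59 and -0.36), a set chosen by its change. Over all genes tested the medians differed little, at -0.0268 with the core and 0.0035 without it. Among all genes tested that had an entry in the promoter table, 3.99% held the core. The share was 9.43% of 615 genes called lower, 2.93% of 682 called higher and 3.66% of 8134 not called. Among the interferon-stimulated genes it was 9 of 18.

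Genes beside the OAS clusters were read as well. The 6 members lie on chromosome 5 in 2 clusters, one with Oas1, Oas2 and Oas3 genes and one with Oasl1 and Oasl2. Of the 4 nearest protein-coding genes in the files on each side of each cluster, 16 in all, 13 were tested and 2 were called lower, Ddx54 (log2 -0.31, adjusted p = 0.0285) and Tchp (-0.54, adjusted p = 0.011), against 6.62% of all genes. The immediate neighbours of the Oas1, Oas2 and Oas3 cluster, Dtx1 (-0.32, adjusted p = 0.481) and Rph3a (0.54, adjusted p = 0.474), did not pass. Beside the Oasl cluster 2210016L21Rik (-0.12, adjusted p = 0.591) did not pass, and 4930519G04Rik had too few counts to be tested.

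Several other quantities differed between the same libraries, and their part in the fall of the OAS genes was not tested. For the counts of markers below, 6.62% of all genes tested were called lower and 7.29% higher. Plasmacytoid dendritic cells, a cell type with high basal Irf7, were read from 6 markers, none at 0, of which 5 fell. Their summed level was 480.3 to 500.5 CPM in the male-labelled libraries and 343.9 to 368.1 CPM in the female-labelled ones, with Siglech at 142 ± 5.93 against 91.8 ± 5.90 CPM. The 8 B cell markers (6 fell, none at 0) summed to 250.9 to 310.4 against 150.7 to 212.1 CPM, and the 6 of conventional dendritic cells (3 fell, none at 0) to 132.7 to 138.4 against 96.0 to 103.2 CPM.

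Myeloid markers moved differently. All 7 neutrophil markers measured rose, from a sum of 26430 to 29330 CPM to one of 32240 to 40990 CPM. Of 9 monocyte and macrophage markers 2 rose, Ccr2 (613 ± 28.4 to 878 ± 58.7 CPM) and Adgre1 (50.4 ± 3.63 to 59.5 ± 3.61 CPM). The other 7 did not pass the test. With 7.29% of all genes tested called higher and 6.62% lower, 1 or 2 calls in a short list were not read as a shift of a cell type. The sum of the 9 was 2088 to 2156 against 2332 to 2389 CPM, a difference carried mainly by Ccr2. Of 7 T and NK cell markers 1 fell (130.4 to 147.6 against 122.6 to 144.4 CPM), and of 7 markers of stroma and endothelium, none at 0 in all libraries, 4 could be tested and none was called by edgeR, DESeq2 or limma-voom (2 were lower at an unadjusted p under 0.05 by edgeR; sums of 68.0 to 72.2 against 53.4 to 64.2 CPM). Mitochondrially encoded transcripts took 13.1%, 10.7% and 12.2% of counts in the male-labelled libraries and 7.37%, 6.42% and 8.49% in the female-labelled ones. When library sizes were computed without these transcripts, all 6 members were still called lower.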

How the data were processed

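Poly-A RNA was sequenced on an Illumina NovaSeq, per the labels' protocols. Per the submitters' processing notes, cutadapt 1.15, HISAT2 2.0.5 and the build GRCm39 were used in roles that the notes do not name. How counts were made, with which annotation, and how strand and shared reads were handled are points not given in the sources used here. Raw counts per Ensembl gene were deposited for 21955 identifiers, without normalization. Symbols and exon lengths came from GENCODE vM21 (GRCm38), which named 21847 of them, and 143 of 145 list entries matched.

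The counts went into edgeR 4.0.16 under R 4.3.3 (TMM factors, filterByExpr at a minimum count of 10, quasi-likelihood test, Benjamini-Hochberg adjustment over all 11903 genes tested, threshold 0.05), with the label group as the only term. Log2 changes are libraries labelled female minus male, and each SE came from the change and its F statistic. The common biological coefficient of variation was 0.0696. Log2 levels used a prior count of 2. No pair of libraries in a group agreed within sampling noise, which does not show that they came from separate animals. Each library was taken as 1 replicate. Single values per library were compared by exact permutation. The pipeline was tested on simulated counts.

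Alternatives used DESeq2 1.42.0, limma-voom 3.58.1, other size factors and filters, a replicate block, no mitochondrially encoded genes, and each library left out. The members and lists were chosen with earlier results of these data known, so no list was tested. Genes named are the members, all other paralogs and the genes of adenylate turnover, up to 5 called genes with the largest change and the 2 most abundant of each other pathway list, the Y-linked genes and the most alike profiles. Others named, cell type markers included, illustrate a list or a place on the chromosome and were picked with their values in view. Some genes of the lists are counted but not reported by name here.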

Additional observations from a re-analysis of the deposited data

How the results depend on the processing

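Under the 8 alternatives that kept all libraries, all 6 members were called lower. Leaving out 1 library gave 5 or 6 members called lower, the exception being Oas1g, whose log2 change ranged from -0.66 to -0.43 (adjusted p from 0.00157 to 0.0882). Over these fits the log2 change ranged from -0.73 to -0.56 for Oas1a, -0.65 to -0.56 for Oas2, -0.54 to -0.46 for Oas3, -1.86 to -1.72 for Oasl1 and -1.14 to -1.10 for Oasl2. The counts over all genes without 1 library ranged from 439 to 1439 higher and from 467 to 1269 lower, the highest without female replicate 3.

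Sting1 left its list with 0 genes called higher under upper-quartile factors, DESeq2, the filter of 10 CPM and without mitochondrially encoded genes, and that count ranged from 0 to 1 without 1 library. Interferon signalling genes ranged from 1 to 3 higher and 4 to 9 lower without 1 library, and interferon-stimulated genes from 0 to 1 higher. Without a filter on low counts 1 interferon-stimulated gene was called higher and 1 interferon gene lower. Abce1 was not called with upper-quartile factors (adjusted p = 0.059), the 10 CPM filter (0.0574) or without mitochondrially encoded genes (0.051). The cause of these shifts was not tested. Among 911 values, all from refits of the same 6 libraries, no log2 change or balance reversed. Counts of called genes, which are part of the 911, have no direction that could reverse.

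The groups share replicate numbers, but same-numbered libraries did not deviate together (correlations -0.0386, 0.0646 and 0.0634), and not every library correlated best with its own number. With the replicate number as a block 1007 genes were higher and 914 lower, and all 6 members were called lower.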
